A study of Mus musculus with 16 samples.

Results

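Chemokines and their receptors were described across 4 groups of mice with MC38 liver metastasis. The genes were chosen by name alone: every gene of the deposited count tables whose mouse symbol begins with Ccl, Cxcl, Ccr or Cxcr and a digit, and Cx3cl1, Cx3cr1 and Xcl1. This gave 60 of the 21959 genes listed, 42 ligands and 18 receptors. Of these, 55 had at least 1 count in 1 of the mice, and 41 (28 ligands and 13 receptors) passed the filter on low counts and were tested among 13968 genes.

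All 16 mice were wild-type C57BL/6 males of 6 weeks that received cells of MC38, a mouse colon adenocarcinoma line, by injection into the spleen, from where the cells seed the liver. The control mice received PBS, and the SB525334 mice the TGF-β receptor type 1 (ALK5) inhibitor SB525334 at 20 mg/kg by gavage. The KN046 mice received the PD-L1 and CTLA-4 binding antibody KN046 at 10 mg/kg by intraperitoneal injection, and the combination mice both drugs at those doses. Each group had 4 samples, each taken here as 1 library from 1 mouse. The labels number the samples and do not state this. The study asked how inhibition of the TGF-β receptor changes the tumor tissue and its response to KN046. One tumor line and one sex were used, and RNA came from pieces of whole tumor tissue, so that fewer cells of a type and less RNA per cell cannot be told apart in any value below.

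Total counts per mouse were 18368994 to 23877131. Levels are given as counts scaled to library size (CPM) after TMM scaling, and comparisons between genes as length-scaled counts (TPM), which are divided by exon length first. Control mice 1 and 2 resembled each other, as did control mice 3 and 4, more than the other 22 pairs of mice from 1 group did. Their counts gave median chi-square values of 1.33 and 0.978, where the other pairs gave 2.87 or more and sampling noise alone gives 0.455. The labels give no reason for this and do not say whether the samples of a pair are from separate mice. Results that are lost when each pair is summed into 1 sample are therefore marked. The summed level of 15 hepatocyte genes was 14047 to 15768 CPM in control, 8942 to 18034 CPM with KN046, 366 to 1817 CPM with SB525334 and 57.1 to 69.0 CPM in the combination. Albumin, which defines hepatocytes, was at 7.07 to 11.6 CPM in the combination mice, against 7843 to 8414 CPM in the control mice, and all 15 genes were called lower there. Tlx1, a transcription factor of the splenic mesenchyme, was at 1.20 to 1.56 CPM in the combination mice and at most 0.131 CPM in any other mouse (log2 fold change against control 5.01, adjusted p = 0.000131). The combination samples therefore held almost no hepatocyte RNA and some RNA with a splenic marker. Each SB525334 sample also held less hepatocyte RNA than any control or KN046 sample. In both groups, and in the interaction that uses them, treatment and tissue content cannot be told apart.

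Chemokines are small secreted proteins that direct the migration of leukocytes through G protein-coupled receptors, and they are named C, CC, CXC or CX3C after the spacing of conserved cysteines. Inflammatory chemokines are induced by cytokines, and the interferon-γ-induced CXCR3 ligands Cxcl9, Cxcl10 and Cxcl11 are best known for drawing effector T cells and NK cells into tumors. The CCR2 ligands recruit monocytes, the CXCR2 ligands recruit neutrophils, and the homeostatic ligands Cxcl12, Cxcl13, Ccl19 and Ccl21 are made largely by stromal cells and position lymphocytes and stem cells in tissue.

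Promoter windows of 300 bases (250 before and 50 after the start site, RefSeq, GRCm38.p6) were listed for 42 of the 60 genes and for 29 of the 41 tested. Stretches before the start sites of 5 genes of the chromosome 5 CXC cluster are shown, because the results on the CXCR2 and CXCR3 axes below turn on these genes. The letters were matched without mismatch to a single place in GRCm39, and capitals mark the motifs found. The 3 CXCR2 ligand genes, on the plus strand, each carried a κB motif (10 letters with the fifth left free, on either strand) as GGGAATTTCC, which began 71, 97 and 73 bases before the start sites of Cxcl1, Cxcl2 and Cxcl3. The motif was in 0.411% of the 32851 mouse promoter windows.
Cxcl1 (chr5:91038974-91039073): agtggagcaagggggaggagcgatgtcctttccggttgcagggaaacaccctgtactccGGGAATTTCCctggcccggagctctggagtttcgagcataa
Cxcl2 (chr5:91051628-91051727): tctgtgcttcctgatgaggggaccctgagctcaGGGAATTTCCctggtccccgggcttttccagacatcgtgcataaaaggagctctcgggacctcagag
Cxcl3 (chr5:90933830-90933929): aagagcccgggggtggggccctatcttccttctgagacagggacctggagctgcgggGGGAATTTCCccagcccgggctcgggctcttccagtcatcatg

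The CXCR3 ligand genes Cxcl9 and Cxcl10 lie on the minus strand of the same chromosome. The Cxcl10 window held the interferon-stimulated response motif (10 letters with the fifth and sixth left free) as GAAAGTGAAA, beginning 213 bases before the start site, and 3.44% of all windows held it. The Cxcl9 window held none of the 4 motifs searched, which says only that these letters are not in it. The same holds for the κB letters in the Cxcl10 window, since κB sites with other letters were not searched. The other motifs were the interferon-γ-activated letters TTCNNNGAA, in 8.3% of all windows and in those of Ccl17 and Cxcl14 among the tested genes, and the SMAD letters GTCTAGAC, in 0.213% of all windows and in none of the 29. Among these 29 genes, Ccr3 also held the κB motif and Cxcl14 also held the interferon-stimulated response motif.
Cxcl9 (chr5:92475969-92476188): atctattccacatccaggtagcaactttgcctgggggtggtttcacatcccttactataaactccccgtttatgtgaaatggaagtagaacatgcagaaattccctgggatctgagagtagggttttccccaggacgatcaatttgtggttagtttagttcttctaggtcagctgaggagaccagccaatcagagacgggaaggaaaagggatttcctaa
Cxcl10 (chr5:92496779-92496998): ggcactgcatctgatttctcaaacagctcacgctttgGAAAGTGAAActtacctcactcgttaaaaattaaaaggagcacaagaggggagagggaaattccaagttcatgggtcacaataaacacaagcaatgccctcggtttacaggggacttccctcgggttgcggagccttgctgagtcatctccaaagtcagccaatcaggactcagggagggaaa

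Per exon length, the monocyte attractant Ccl2 was the most abundant chemokine of the control tumors at 720.3 ± 25.6 TPM (SD, n = 4). It was followed by Ccl6 at 243 ± 28.4 TPM and Ccl7, a second CCR2 ligand, at 233 ± 41.2 TPM, which did not differ beyond their spread. Cxcl9 at 102 ± 39.1, Cxcl10 at 97.5 ± 14.0 and the CCR1 ligand Ccl9 at 92.0 ± 5.73 TPM came next and also overlapped within their SD. The membrane-bound fractalkine Cx3cl1 was at 57.4 ± 7.84 TPM and Ccl5, an inflammatory ligand made by T cells and NK cells, at 48.3 ± 7.77 TPM. Cxcr4 was the most abundant receptor at 51.8 ± 9.65 TPM, with Ccr1 at 42.9 ± 8.68, Ccr2 at 33.3 ± 10.4 and Cx3cr1 at 29.2 ± 2.55 TPM behind it. Summed over all 42 ligands, the level was 1940 ± 76.1 TPM in control, 1534 ± 123 TPM with SB525334, 1130 ± 455 TPM with KN046 and 1903 ± 151 TPM in the combination. Summed over the 18 receptors, it was 217 ± 40.8, 234 ± 22.5, 116 ± 57.9 and 216 ± 33.6 TPM in the same order. The KN046 sums spread most, and their lowest ligand sum was 673 TPM and their highest 1566 TPM.

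**Figure D1:**
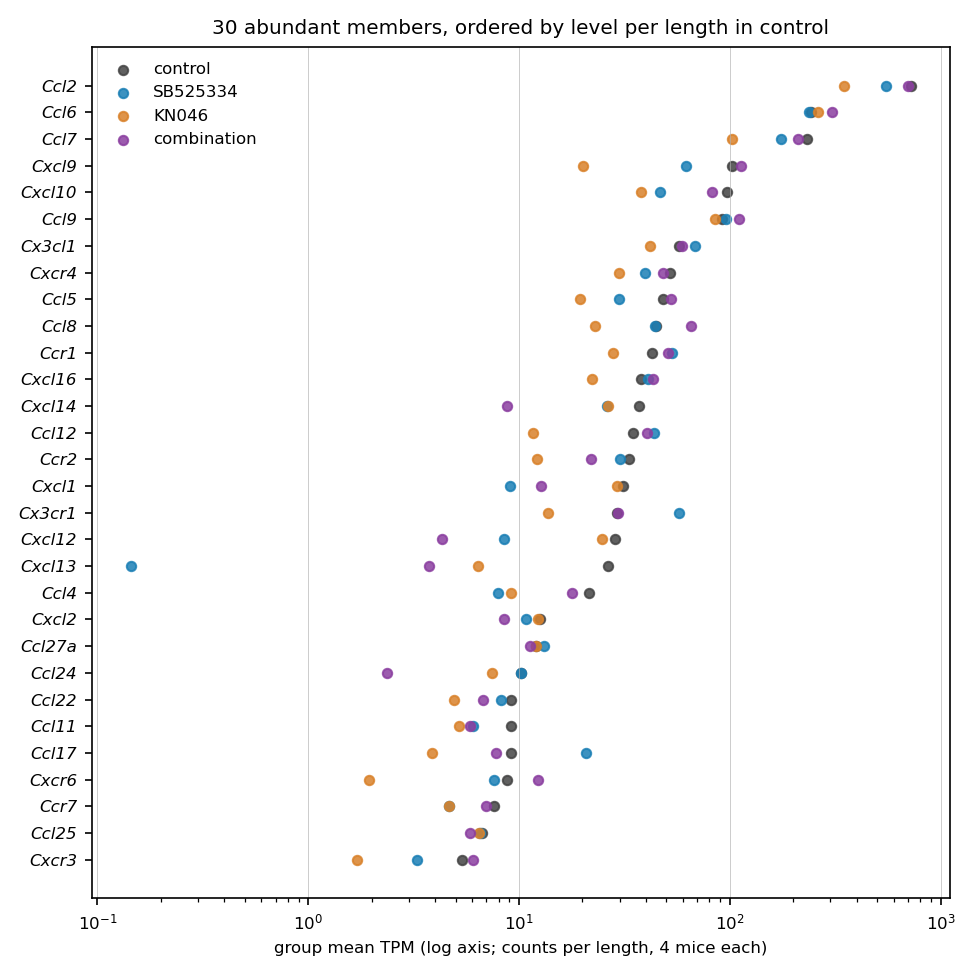
Group mean TPM (log axis) of 30 abundant chemokine and receptor genes, ordered by their control level, 1 point for each of the 4 groups of 4 mice. Ccl2 leads in every group shown, and Cxcl13 falls from 26.5 TPM in control to 0.144 TPM with SB525334.

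Each treatment was compared with control, the combination with each single drug, and the 2 drugs for an interaction, which asks whether the log2 effect of SB525334 differed with and without KN046. A gene is called at an adjusted p under 0.05 (edgeR quasi-likelihood test over 16 mice, Benjamini-Hochberg over all 13968 genes), and the values below are log2 fold changes ± standard error. Comparisons that share a group of mice, such as control or KN046, are not independent of one another. Low values in the KN046 mice lower KN046 against control and raise both combination against KN046 and the interaction. With SB525334, 4 of the 41 tested chemokine genes were called, all lower (9.76%), where 9.61% of all genes were called and 9.22% were called lower. With KN046, 8 of 41 were called, all lower (19.5%), against 4% of all genes called, 1.6% higher and 2.4% lower. In the combination, 1 gene was called higher and 3 lower than control (9.76% in all), against 11.1% of all genes, 1.37% higher and 9.74% lower. The combination stood further from KN046, with 14 genes called higher and 2 lower of 41 (39%), against 24.4% of all genes, 9.89% higher and 14.5% lower. Against SB525334 it had 2 genes called higher and 2 lower (9.76%), against 3.57% of all genes, 0.544% higher and 3.03% lower. The interaction was called for 10 of 41 genes (24.4%), all positive, against 4.28% of all genes and 1.73% positive. In all, 21 of the 41 genes were called in at least 1 of these 6 comparisons.

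The log2 fold changes of the 41 genes had a median of -0.45 with SB525334 (31 below 0 and 10 above), -0.82 with KN046 (34 below and 7 above) and -0.09 in the combination (24 below and 17 above). It was 0.89 between the combination and KN046, 0.29 between the combination and SB525334 and 1.08 for the interaction, where all genes tested had medians between -0.03 and 0.01. The 4 mice of a treated group did not overlap with the 4 control mice for 13 of the 41 genes with SB525334, 16 with KN046 and 6 in the combination, against 18.3%, 11.6% and 17.4% of all genes. The combination mice did not overlap with the KN046 mice for 13 genes and with the SB525334 mice for 5, against 20.3% and 7.05% of all genes.

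**Figure D2:**
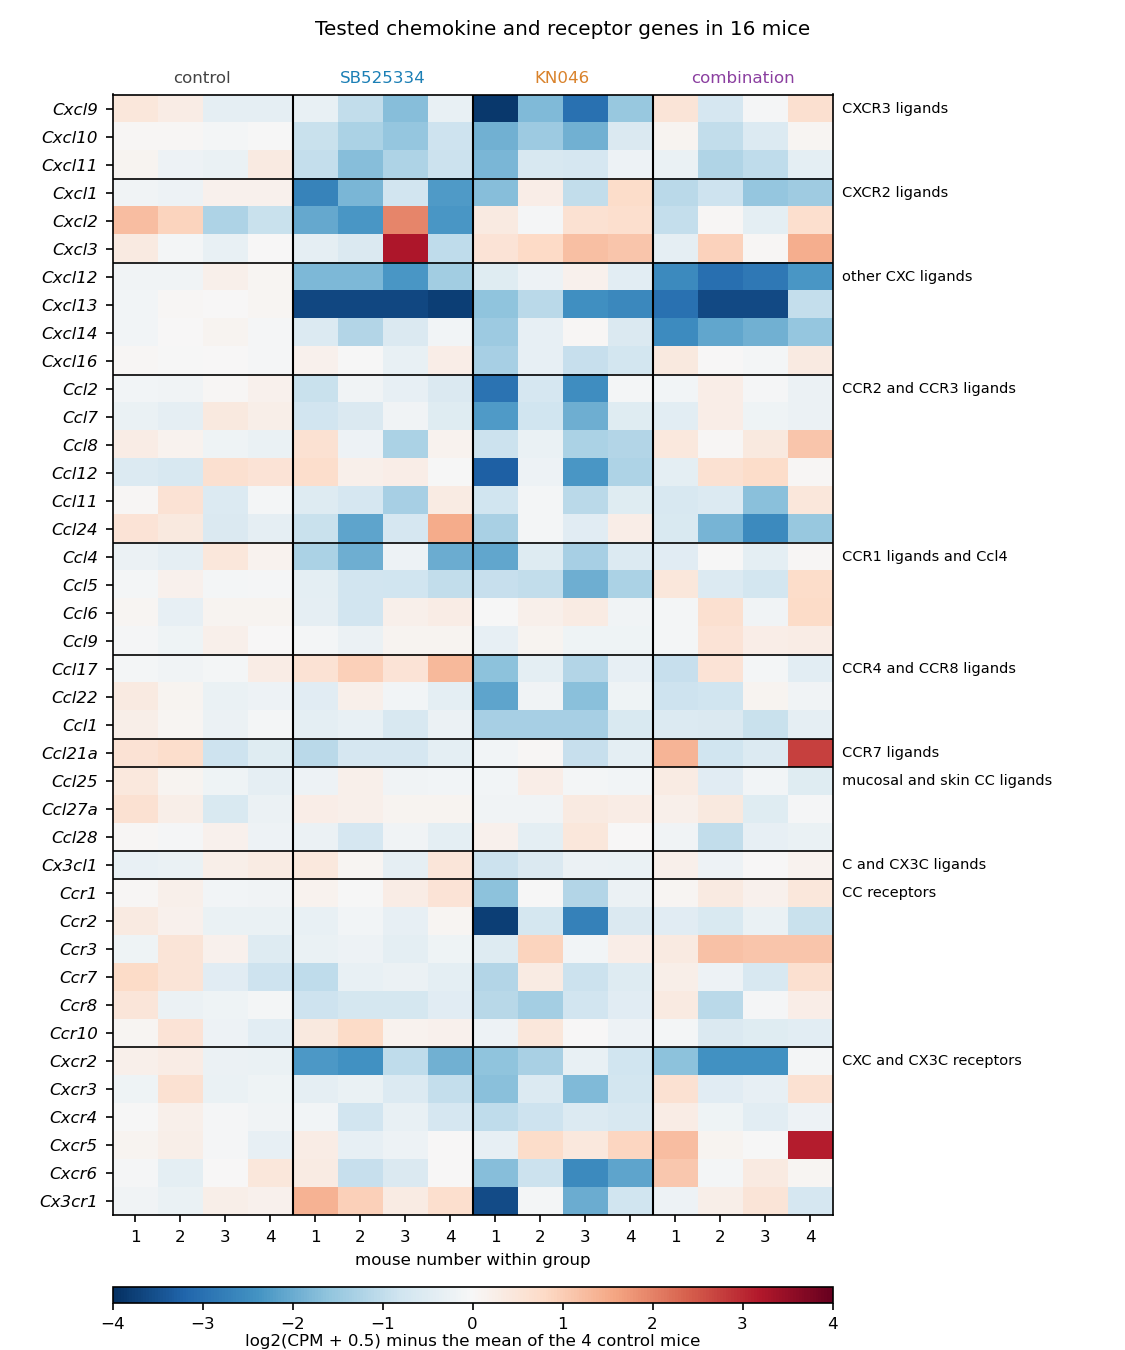
Level of tested genes (rows, grouped by ligand or receptor class) in the 16 mice (columns, 4 per group), as log2(CPM + 0.5) minus the mean of the 4 control mice. KN046 mice 1 and 3 are the lowest of their group for Ccr2, Ccr1, Cx3cr1, Ccl2 and Cxcl9, and the Cxcl12, Cxcl13 and Cxcl14 rows are low in the combination except for Cxcl13 in mouse 4.

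**Figure D3:**
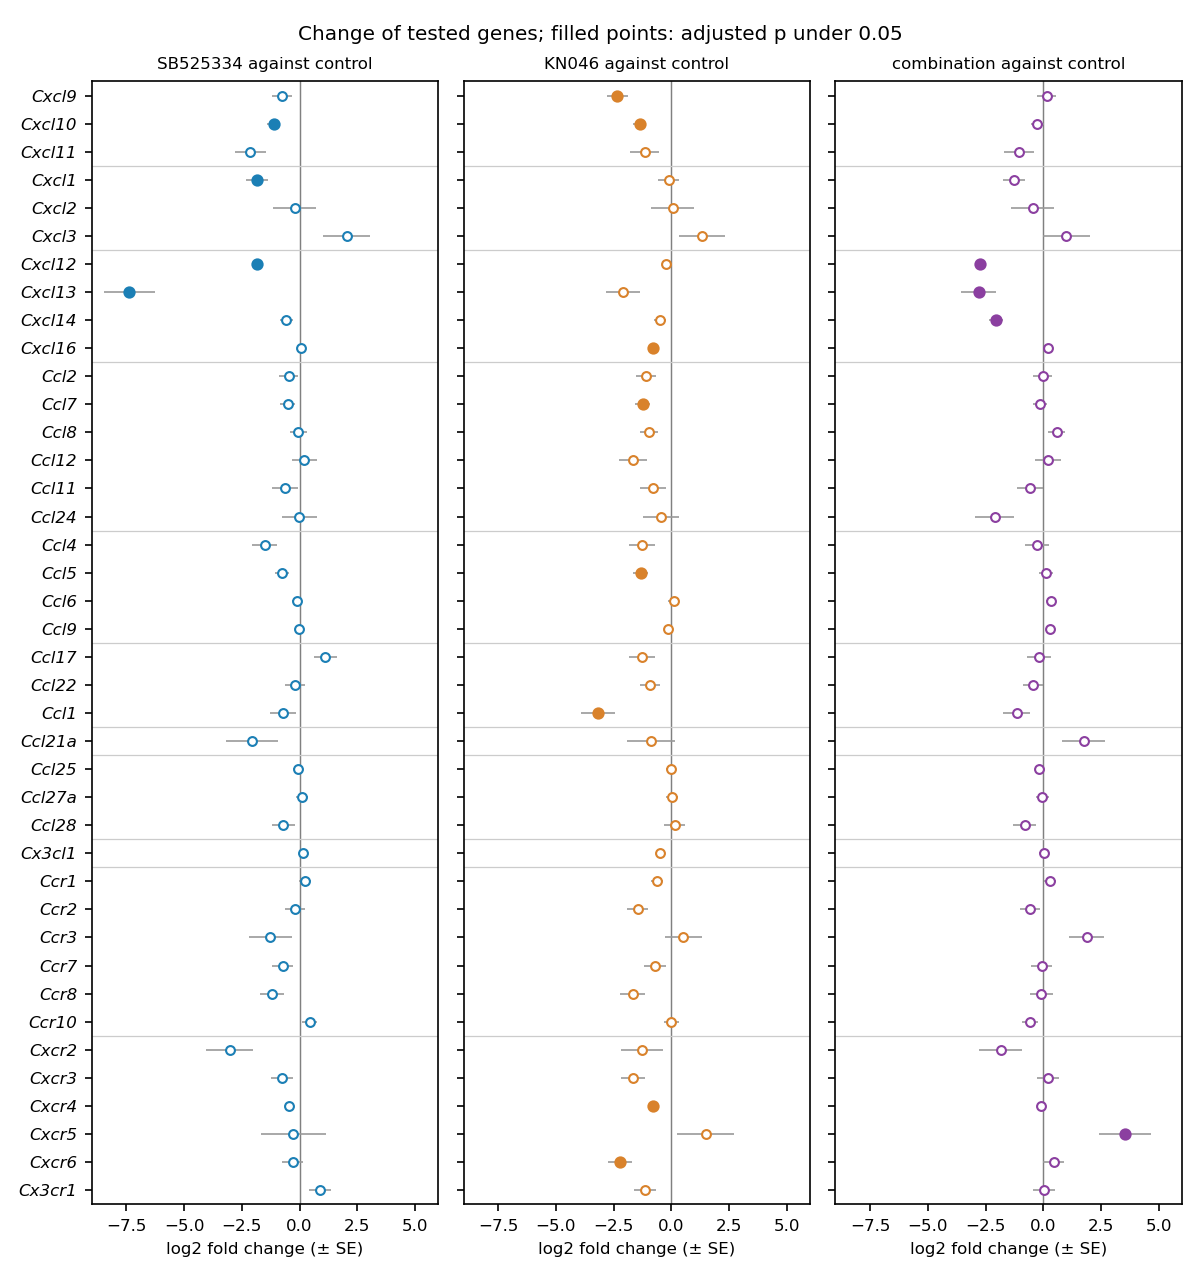
Log2 fold change ± standard error of tested genes against control for SB525334, KN046 and the combination, with called genes as filled points. The called genes are 4, 8 and 4 in these comparisons, and Cxcr5 in the combination is the single one that is higher.

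Cxcl12, the ligand of Cxcr4 made by fibroblasts, endothelium and other stromal cells (chr6:117144945-117158328, plus strand), fell in both groups that received SB525334. Its level was 43.8, 44.0, 56.7 and 51.9 CPM in the control mice, 13.6, 13.7, 9.38 and 18.4 CPM with SB525334, 34.9, 42.7, 54.9 and 36.3 CPM with KN046 and 7.96, 5.63, 6.33 and 9.33 CPM in the combination. All 8 mice that received SB525334 lay below all 8 that did not. Against control the fold change was -1.83 ± 0.20 with SB525334 (adjusted p = 4.27e-06) and -2.74 ± 0.21 in the combination (adjusted p = 1.9e-08), which are 3.56-fold and 6.69-fold lower levels. With KN046 it was -0.22 ± 0.19 (adjusted p = 0.52, 95% interval -0.60 to 0.16). The combination was also lower than SB525334 alone (-0.91 ± 0.21, adjusted p = 0.0134), although the call was lost without SB525334 mouse 4 or combination mouse 2 or 3 (highest adjusted p 0.0559). The interaction was not called (-0.69 ± 0.28, adjusted p = 0.212).

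Cxcl14, a ligand of epithelium and fibroblasts (chr13:56436352-56444603, minus strand), fell in the combination. It was at 24.1, 26.3, 28.0 and 25.3 CPM in control, 17.5, 11.1, 17.2 and 23.9 CPM with SB525334, 9.11, 20.7, 27.0 and 17.1 CPM with KN046 and 4.16, 5.74, 6.44 and 8.58 CPM in the combination. Each combination mouse was below every mouse of the other 3 groups. The fold change was -2.06 ± 0.29, adjusted p = 3.55e-05 against control, -1.57 ± 0.29, adjusted p = 0.000689 against KN046 and -1.48 ± 0.29, adjusted p = 0.00372 against SB525334. SB525334 and KN046 alone gave -0.57 (adjusted p = 0.266) and -0.49 (adjusted p = 0.291), and the interaction was not called (-0.99, adjusted p = 0.198).

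Cxcl13, the B cell attractant of lymphoid stroma and the ligand of Cxcr5 (chr5:96104810-96108927, plus strand), was nearly absent with SB525334. The control mice had 131, 136, 124 and 126 counts and the SB525334 mice 1, 1, 1 and 0, which are 3 against 517 counts in all. The depth-scaled ratio was 0.00513 with a 95% counting interval of 0.00105 to 0.0151, and the difference was called (adjusted p = 0.000105). The level was 1.71, 2.72, 0.726 and 0.623 CPM with KN046 and 0.359, 0.0552, 0.0546 and 3.02 CPM in the combination, against 5.73, 6.44, 6.29 and 6.58 CPM in control. All KN046 and all combination mice were thus below all control mice, while combination mouse 4 stood far above the other 3. Against control the combination was lower (-2.80 ± 0.75, adjusted p = 0.0182) and KN046 missed the threshold (-2.10 ± 0.72, adjusted p = 0.097). The call in the combination was lost with the control pairs summed (adjusted p = 0.0791). The interaction was called (6.67, adjusted p = 0.00895). With 3 counts over the SB525334 mice, a further fall with KN046 could hardly show, which by itself pushes this interaction upward. The call of the combination over SB525334 (adjusted p = 0.0391) rested on combination mouse 4, without which adjusted p = 0.586, and it was also lost without any 1 of the control or SB525334 mice and with the control pairs summed (adjusted p = 0.0673). The fitted sizes depend on how 3 counts are moderated.

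Several marker lists also changed in the SB525334 or combination mice, and their part in the falls of these 3 ligands was not tested. Of 15 hepatocyte genes, 15 were lower with SB525334 and 15 in the combination, and 0 were called with KN046 (edgeR; 2 at an unadjusted p under 0.05 and 0 by DESeq2). Of 6 Kupffer cell genes, 5 were lower with SB525334 and 5 in the combination, and 0 were called with KN046 by edgeR (1 unadjusted, 0 by DESeq2). The Kupffer cell sum was 162 to 332 CPM in control, 9.95 to 25.1 with SB525334, 53.7 to 393 with KN046 and 1.80 to 13.1 in the combination. Of 7 genes of liver sinusoidal endothelium, 5 were lower with SB525334, 1 was higher with KN046 and 3 were lower in the combination, with sums of 211 to 415, 222 to 272, 235 to 397 and 241 to 254 CPM in control, SB525334, KN046 and combination mice. Of 10 tested fibroblast genes, 3 were lower in the combination (Lum, Postn and Col1a2), and edgeR and DESeq2 called 0 with SB525334 (1 at an unadjusted p under 0.05) and 0 with KN046 (0 unadjusted). The fibroblast sum was 7752 to 8433, 7020.1 to 11039.9, 6531 to 8876 and 6373 to 11764 CPM in control, SB525334, KN046 and combination mice. No gene of these 4 lists was at 0 in every mouse, and the defining Kupffer cell gene Clec4f was at 0 to 0.103 CPM in the combination against 35.8 to 100.2 in control.

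Cxcr4, which is carried by most leukocytes, followed another pattern than its ligand. It was at 19.1, 22.0, 18.5 and 17.2 CPM in control, 17.7, 11.1, 15.5 and 11.8 CPM with SB525334, 9.11, 10.5, 12.9 and 12 CPM with KN046 and 23.7, 16.9, 14.1 and 16.5 CPM in the combination. The KN046 mice lay below all control and all combination mice. The fold change was -0.79 ± 0.18, adjusted p = 0.0307 with KN046 and 0.68 ± 0.18, adjusted p = 0.0131 between combination and KN046, and the interaction was 1.13 ± 0.26, adjusted p = 0.016. With SB525334 it was -0.45 (adjusted p = 0.158) and in the combination -0.11 (adjusted p = 0.772). The interaction of Cxcr4 missed the threshold with the control pairs summed (adjusted p = 0.0648).

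Among the CXCR3 ligands, Cxcl9 and Cxcl10 fell with KN046, Cxcl10 fell with SB525334, and none was called in the combination against control. Cxcl9 was at 81.9, 73.2, 46.1 and 46.4 CPM in control, 49.0, 30.0, 17.9 and 48.7 CPM with SB525334, 3.62, 17.4, 7.10 and 20.5 CPM with KN046 and 86.3, 37.5, 57.3 and 93.1 CPM in the combination. Every KN046 mouse was below every control and combination mouse. Cxcl9 fell with KN046 by 2.35 ± 0.45 (adjusted p = 0.017), a 5.09-fold lower level, and it was 5.63-fold higher in the combination than with KN046 (2.49 ± 0.45, adjusted p = 0.000583). Neither SB525334 (-0.77, adjusted p = 0.361) nor the combination (0.15, adjusted p = 0.871, 95% interval -0.67 to 0.97) was called against control. The interaction was 3.26 ± 0.61, adjusted p = 0.00453.

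Cxcl10 was the CXCR3 ligand called with each single drug. It was at 46.7, 46.7, 41.9 and 43.8 CPM in control, 23.8, 18.5, 14.8 and 24.8 CPM with SB525334, 11.4, 15.9, 11.3 and 30.1 CPM with KN046 and 48.7, 22.6, 30.2 and 47.5 CPM in the combination. Both single-drug groups were below all control mice, and combination mice 1 and 4 were above them. The fold change was -1.13 ± 0.29, adjusted p = 0.0132 with SB525334, -1.38 ± 0.29, adjusted p = 0.0239 with KN046 and -0.27 (adjusted p = 0.631) in the combination. The combination exceeded KN046 by 1.11 ± 0.29, adjusted p = 0.0103, and the interaction was 2.24 ± 0.41, adjusted p = 0.00316. Exons of Cxcl10 overlap Art3 on the opposite strand, and the strand setting of the counting is not given in the sources used here, so reads of Art3 may be included.

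Cxcl11, the third ligand, was at 1.40, 1.04, 0.964 and 1.78 CPM in control, 0.407, 0.0398, 0.258 and 0.474 CPM with SB525334, 0, 0.632, 0.615 and 1.04 CPM with KN046 and 0.976, 0.276, 0.382 and 0.848 CPM in the combination. All SB525334 mice were below all control mice, but edgeR over all mice called no comparison (SB525334 -2.13, adjusted p = 0.0615, and interaction 2.25, adjusted p = 0.237). Cxcl11, SB525334 against control, was called by DESeq2 (adjusted p = 0.026) and by edgeR with only the mice compared (0.0164) or without KN046 mice 1 and 3 (0.0149). It was called in 1 of the 16 fits without 1 mouse and not with the control pairs summed (0.195). Their receptor Cxcr3 was at 1.53, 2.98, 1.42 and 1.52 CPM in control, 1.27, 1.39, 1.08 and 0.689 CPM with SB525334, 0.213, 1.07, 0.168 and 0.883 CPM with KN046 and 2.98, 1.16, 1.31 and 3.02 CPM in the combination. The KN046 mice again lay below the control and combination mice without overlap. Cxcr3 was called between combination and KN046 (1.84 ± 0.52, adjusted p = 0.0168) and for the interaction (2.58 ± 0.71, adjusted p = 0.0474), and it missed the threshold with KN046 against control (-1.65 ± 0.52, adjusted p = 0.0763). The call over KN046 was lost without KN046 mouse 1 or combination mouse 4, and the interaction was lost in 12 of the 16 fits that left out 1 mouse, with adjusted p up to 0.118 without combination mouse 4.

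Cxcl16 and its receptor Cxcr6, found on resident and effector T cells, fell with KN046 and were higher in the combination than with KN046. Cxcl16 was at 41.4, 39.0, 40.1 and 38.6 CPM in control, 44.9, 39.4, 32.3 and 47.4 CPM with SB525334, 15.7, 31.4, 20.8 and 23.6 CPM with KN046 and 52.4, 39.8, 37.3 and 51.1 CPM in the combination. No KN046 mouse reached the lowest mouse of any other group. The fold change was -0.80 ± 0.18, adjusted p = 0.0268 with KN046 and 0.98 ± 0.18, adjusted p = 0.00058 for combination over KN046, and the interaction was 0.94 ± 0.25, adjusted p = 0.0393 and was lost in 12 of 16 fits without 1 mouse. Cxcr6 was at 3.28, 2.46, 3.45 and 4.86 CPM in control, 4.38, 1.55, 2.11 and 3.45 CPM with SB525334, 0.693, 1.65, 0.168 and 0.416 CPM with KN046 and 7.81, 3.26, 4.53 and 3.63 CPM in the combination. The KN046 mice did not overlap with the control or the combination mice. Cxcr6 fell with KN046 (-2.23 ± 0.51, adjusted p = 0.0286) and was higher in the combination than with KN046 (2.68 ± 0.51, adjusted p = 0.000897), with an interaction of 2.97 ± 0.68, adjusted p = 0.0164. SB525334 and the combination were not called against control for either gene (adjusted p from 0.584 to 0.935). Cxcl16 shares exon sequence with Med11 and Zmynd15 on the opposite strand.

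**Figure D4:**
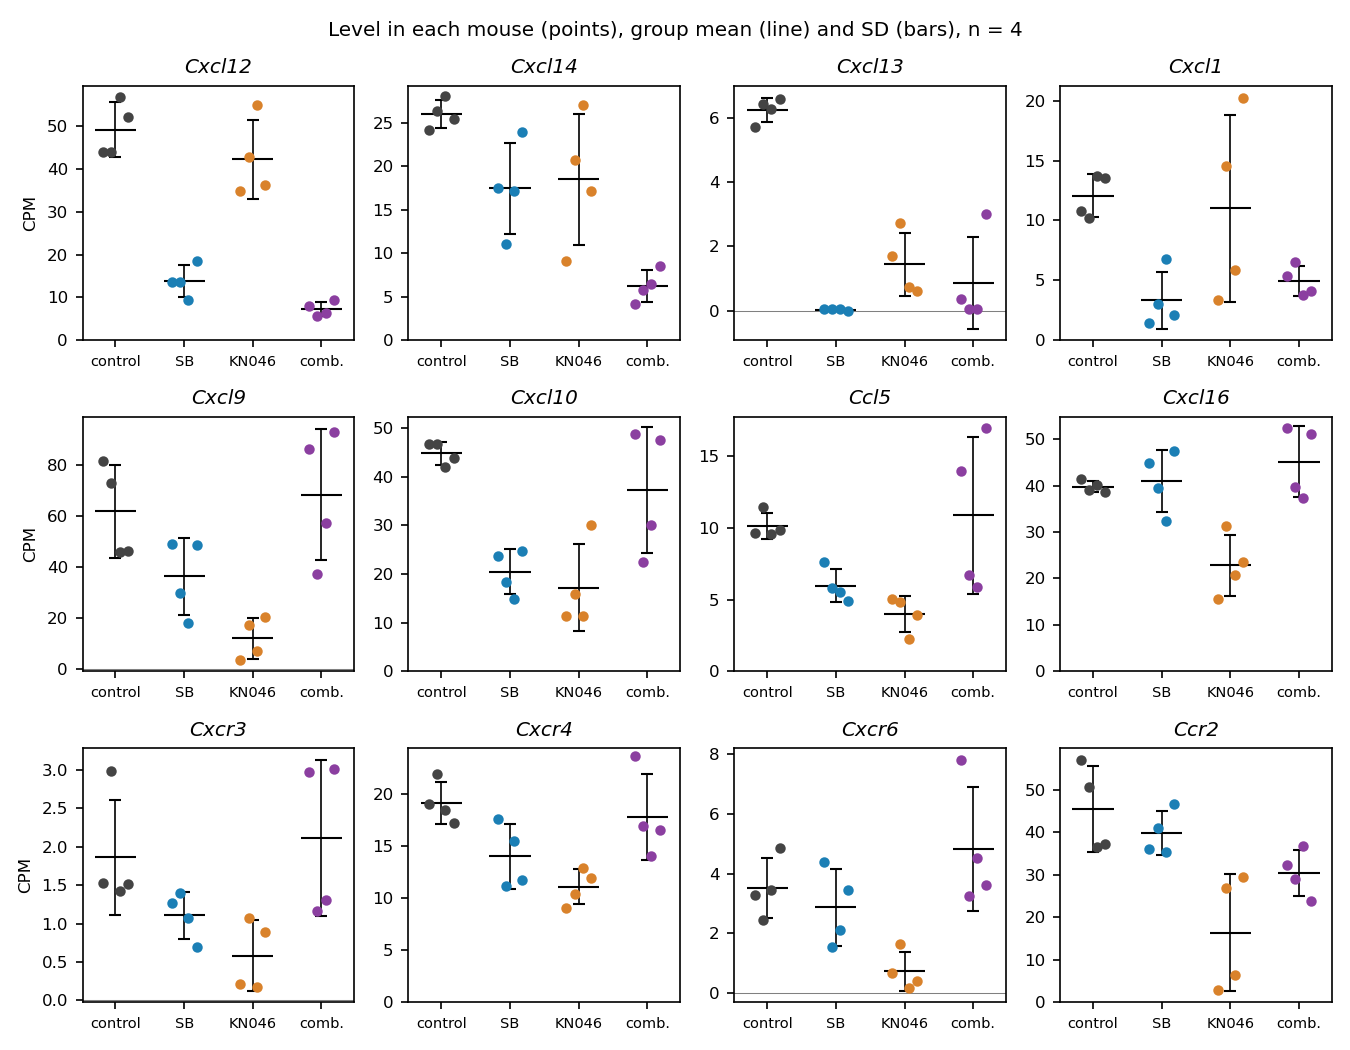
CPM of 12 chemokine and receptor genes in each mouse (points), with the group mean (line) and SD (bars, n = 4), SB standing for SB525334 and comb. for the combination. Cxcl12 is at or below 18.4 CPM in all 8 mice that received SB525334 and at or above 34.9 CPM in the others, and Cxcl9, Cxcl16, Cxcr3, Cxcr4 and Cxcr6 are lowest on average with KN046.

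Among the inflammatory CC ligands of T cells and macrophages, Ccl5 was at 9.62, 11.5, 9.59 and 9.82 CPM in control, 7.59, 5.77, 5.55 and 4.91 CPM with SB525334, 5.06, 4.81, 2.24 and 3.90 CPM with KN046 and 14.0, 6.68, 5.84 and 17.0 CPM in the combination. Each single-drug group was below the control mice, and combination mice 1 and 4 were above them. Ccl5 fell with KN046 (-1.34 ± 0.31, adjusted p = 0.0322), was higher in the combination than with KN046 (1.44 ± 0.31, adjusted p = 0.00316) and had an interaction of 2.2 ± 0.44, adjusted p = 0.00653, while SB525334 was not called (-0.76, adjusted p = 0.159). Ccl4, a second ligand of this kind, was at 2.45, 2.22, 4.26 and 3.34 CPM in control, 0.949, 0.398, 2.54 and 0.388 CPM with SB525334, 0.320, 1.94, 0.894 and 1.87 CPM with KN046 and 2.05, 2.98, 2.13 and 3.06 CPM in the combination. It was called in no comparison, with -1.52 (adjusted p = 0.103) for SB525334 and 2.53 (adjusted p = 0.0778) for the interaction. Without SB525334 mouse 3, the highest of its group, Ccl4 was called for SB525334 against control (-2.40, adjusted p = 0.00539), combination against SB525334 (2.15, adjusted p = 0.0268) and the interaction (3.42, adjusted p = 0.00886). Ccl3 was too low to test, with 7, 1, 7 and 7 counts in control, 2, 4, 4 and 0 counts with SB525334, 3, 1, 4 and 1 counts with KN046 and 4, 4, 3 and 12 counts in the combination.

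Ccr1, the receptor of Ccl6 and Ccl9 on monocytes and macrophages, was at 25.3, 28.5, 22.7 and 22.3 CPM in control, 27.0, 24.6, 30.1 and 36.0 CPM with SB525334, 7.52, 24.1, 10.7 and 21.0 CPM with KN046 and 26.1, 31.7, 27.8 and 33.7 CPM in the combination. It was higher in the combination than with KN046 (0.91 ± 0.26, adjusted p = 0.0182), but not called without KN046 mouse 3 (adjusted p = 0.0555) or combination mouse 4. Its ligand Ccl9 was at 56.3, 52.4, 67.7 and 59.7 CPM in control, 55.6, 50.1, 63.6 and 64.1 CPM with SB525334, 46.9, 63.3, 52.4 and 52.1 CPM with KN046 and 55.5, 85.7, 71.3 and 72.1 CPM in the combination. The groups overlapped, and a small rise of the combination over KN046 (0.41 ± 0.13, adjusted p = 0.0342) was lost without any 1 of KN046 mice 1, 3 and 4 and combination mice 2, 3 and 4. Ccl6, at 72.3 to 98.0 CPM in control and 81.7 to 112 CPM with KN046, was called nowhere.

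Markers of T cells and of the interferon-γ response moved with the CXCR3 axis, the CXCR6 axis and Ccl5, and their part in these results was not tested. Of 12 tested T cell genes, 6 were lower with KN046, 11 were higher in the combination than with KN046 and 9 had a called interaction, all positive. By edgeR and DESeq2, 0 were called with SB525334 (5 at an unadjusted p under 0.05) and 0 in the combination (0 unadjusted). The T cell sum was 49.1 to 62.5 CPM in control, 27.7 to 48.0 with SB525334, 13 to 28.4 with KN046 and 41.6 to 94.3 in the combination. Of 17 interferon-γ response genes, 9 were lower with KN046, 3 were lower with SB525334, 15 were higher in the combination than with KN046 and 14 had a called positive interaction, and edgeR and DESeq2 called 0 in the combination against control (0 unadjusted). Their sums were 1438 to 1912, 729.5 to 1554, 531 to 1003 and 1057 to 2597 CPM in control, SB525334, KN046 and combination mice. Of 4 tested NK cell genes, 1 was lower with KN046 and 1 higher in the combination than with KN046, and their sum was 11.2 to 13 CPM in control, 8.91 to 11.2 with SB525334, 5.36 to 14.7 with KN046 and 9.12 to 16.3 in the combination. By edgeR, the calls with KN046 had adjusted p from 0.0166 to 0.0315 for T cell genes and from 0.0166 to 0.0427 for interferon-γ response genes. They are given over all mice only, and whether they hold without KN046 mouse 1 or 3 or with the control pairs summed is not given here. No gene of the 3 lists was at 0 in every mouse. Cd3e, which defines T cells, was at 1.88 to 3.88 CPM in control and 0.615 to 1.17 CPM with KN046.

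All 8 KN046 calls against control were lost without KN046 mouse 1, without KN046 mouse 3 and with the control pairs summed, a setting that leaves 2 control samples. For Cxcl9, KN046 against control, the log2 fold change was -2.35 both over all mice and with the pairs summed. In the edgeR fit, 0 of 41 genes were called without KN046 mouse 1 (16 at an unadjusted p under 0.05) and 0 of 41 without KN046 mouse 3 (15 unadjusted). With the control pairs summed, 0 of 43 were called (13 unadjusted). Leaving out any control mouse gave 1 or 2 calls and leaving out KN046 mouse 2 gave 16, among them Ccr1, Ccr2, Ccl8, Ccl12, Cx3cr1, Cxcr3 and Cxcl13, which were not called over all mice, while DESeq2 over all mice gave 10. The higher levels in the combination than with KN046 were called without both mice 1 and 3, a setting chosen after the data were seen, for Cxcl9 (adjusted p = 0.00804), Cxcl16 (0.0122), Ccl5 (0.0289) and Cxcr6 (0.0174). The other 10 genes called higher there missed the threshold in that setting, with Cxcr4 nearest to it (adjusted p = 0.0644). The interactions of Cxcl9, Cxcl10, Ccl5 and Cxcl13 were called in each of the 16 fits without 1 mouse and under each of the 8 other settings with an adjusted p, and these 4 were the interactions called with the control pairs summed. For Cxcl13 these settings do not remove the count floor, since the SB525334 mice held 3 counts in all and a further fall could hardly show. Of 15 hepatocyte genes, 14 had a called negative interaction.

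**Figure D5:**
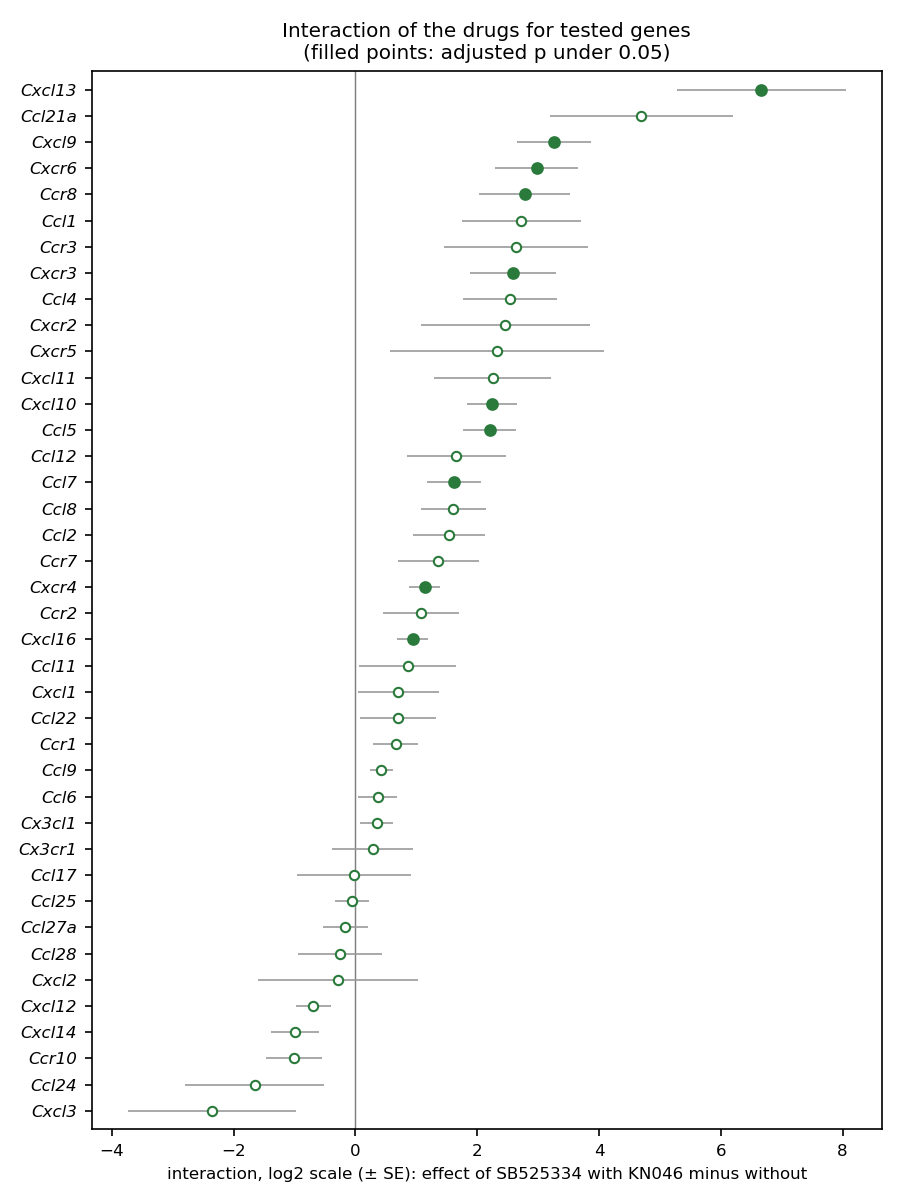
Interaction of SB525334 and KN046 for tested genes on the log2 scale (± standard error), ordered by size, with the 10 called genes as filled points. The called values run from 0.94 for Cxcl16 to 6.67 for Cxcl13, and the lowest value is -2.36 for Cxcl3, which was not called.

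The CCR2 axis carried the most abundant ligand. Ccl2 was at 158, 152, 176 and 191 CPM in control, 90.6, 151, 135 and 112 CPM with SB525334, 21.4, 104, 29.8 and 159.9 CPM with KN046 and 157, 204, 161 and 142 CPM in the combination. KN046 mice 1 and 3 were the lowest of all 16 mice, and no comparison was called (KN046 -1.10 ± 0.42, adjusted p = 0.13). Ccl7 had the same 2 low mice, with 31.5, 29.6, 50.8 and 45.1 CPM in control, 22.2, 25.3, 34.7 and 27.5 CPM with SB525334, 7.57, 21.6, 9.50 and 27.5 CPM with KN046 and 28.7, 46.4, 34.0 and 32.6 CPM in the combination. It fell with KN046 (-1.24 ± 0.32, adjusted p = 0.0407), was higher in the combination than with KN046 (1.09 ± 0.32, adjusted p = 0.0193) and had an interaction of 1.61 ± 0.44, adjusted p = 0.0483, which was lost in 14 of 16 fits without 1 mouse. The call over KN046 was lost without KN046 mouse 1 or 3 or combination mouse 2. The receptor Ccr2, carried by inflammatory monocytes, was at 57.1, 50.6, 36.6 and 37.3 CPM in control, 36.1, 41.1, 35.4 and 46.8 CPM with SB525334, 2.82, 26.9, 6.43 and 29.5 CPM with KN046 and 32.2, 29.0, 36.8 and 23.9 CPM in the combination. The KN046 mice did not overlap with the control mice, but the change missed the threshold (-1.46 ± 0.46, adjusted p = 0.074).

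Ccl12 and Ccl8, other CC ligands, were called between the combination and KN046. Ccl12 was at 3.50, 3.27, 8.62 and 8.15 CPM in control, 9.04, 6.25, 6.58 and 5.34 CPM with SB525334, 0.107, 4.57, 0.671 and 1.97 CPM with KN046 and 4.01, 8.39, 9.17 and 5.56 CPM in the combination (combination against KN046 1.87 ± 0.60, adjusted p = 0.0321). The control mice fell into 2 levels, mice 1 and 2 below mice 3 and 4, and the groups overlapped. The call was lost without any 1 of KN046 mice 1, 3 and 4 and combination mice 2 and 3. Ccl8 was at 5.73, 5.11, 3.96 and 3.71 CPM in control, 7.14, 3.94, 1.59 and 5.08 CPM with SB525334, 2.29, 3.74, 1.62 and 1.77 CPM with KN046 and 6.26, 4.75, 6.11 and 10.5 CPM in the combination. Every combination mouse was above every KN046 mouse (1.54 ± 0.39, adjusted p = 0.00829). Against control neither was called (adjusted p from 0.113 to 0.958).

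Fractalkine Cx3cl1 and its receptor Cx3cr1, carried by patrolling monocytes and macrophages, were called in no comparison. Cx3cr1 was at 25.5, 22.9, 33.0 and 31.5 CPM in control, 74.1, 54.2, 35.4 and 45.0 CPM with SB525334, 1.87, 26.1, 6.65 and 15.9 CPM with KN046 and 24.4, 32.8, 39.7 and 17.4 CPM in the combination. All SB525334 mice were above all control mice (0.89 ± 0.46, adjusted p = 0.325), and KN046 mouse 1 was the lowest of the 16. Cx3cl1 ranged over 37.5 to 58.7 CPM in control, 35.8 to 64.9 with SB525334, 25.6 to 39.7 with KN046 and 40.6 to 53.7 in the combination. Of 11 macrophage genes, edgeR and DESeq2 called 0 with KN046 (2 at an unadjusted p under 0.05), 2 were lower with SB525334, 2 were lower in the combination, and 5 were higher and 2 lower in the combination than with KN046, with Csf1r, which defines macrophages, at 147 to 224, 136 to 182, 74.5 to 209 and 124 to 144 CPM in control, SB525334, KN046 and combination mice. The macrophage sum, of which Apoe, also made by hepatocytes, was the largest term, was 3631 to 4727, 1856 to 2992, 2537 to 4796 and 1726 to 2114 CPM. Of 7 monocyte genes, 3 were lower with SB525334, 1 with KN046 and 1 in the combination, and their sum was 1651 to 2154, 1228 to 1871, 1754 to 2086 and 1174 to 1644 CPM. No gene of either list was at 0 in every mouse, and the part of these cells in the CCR1, CCR2 and CX3CR1 values was not tested.

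Of the CXCR2 ligands shown above with their κB motif, Cxcl1 fell with SB525334. It was at 10.8, 10.2, 13.7 and 13.5 CPM in control, 1.45, 2.99, 6.76 and 2.11 CPM with SB525334, 3.36, 14.6, 5.87 and 20.3 CPM with KN046 and 5.39, 6.57, 3.77 and 4.15 CPM in the combination. All SB525334 and all combination mice were below all control mice, and the KN046 mice ranged from far below to above them. The fold change was -1.86 ± 0.48, adjusted p = 0.0162 with SB525334 and -1.28 (adjusted p = 0.104) in the combination. The SB525334 call was lost with the control pairs summed (adjusted p = 0.0745) and without SB525334 mouse 1, 2 or 4, and that of Cxcl10 with the pairs summed (adjusted p = 0.0757) or without SB525334 mouse 3.

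Cxcl2 and Cxcl3, which lie in the same cluster as Cxcl1, were set apart by 1 SB525334 mouse. Cxcl2 was at 9.58, 7.43, 1.32 and 1.78 CPM in control, 0.542, 0.358, 16.1 and 0.345 CPM with SB525334, 5.01, 3.60, 6.04 and 6.23 CPM with KN046 and 1.69, 3.86, 2.78 and 6.32 CPM in the combination. Cxcl3 was at 1.01, 0.615, 0.456 and 0.679 CPM in control, 0.407, 0.279, 10.6 and 0.0862 CPM with SB525334, 1.23, 1.56, 2.18 and 2.03 CPM with KN046 and 0.411, 1.71, 0.710 and 2.69 CPM in the combination. SB525334 mouse 3 alone held the highest level of both genes, above all 15 other mice, and the other 3 SB525334 mice were the lowest for Cxcl2. No comparison was called (Cxcl2 with SB525334 -0.22 ± 0.93, adjusted p = 0.94; Cxcl3 with SB525334 2.03 ± 1, adjusted p = 0.285). Without SB525334 mouse 3, Cxcl2, SB525334 against control, was called lower (-3.59, adjusted p = 0.002), and Cxcl3, SB525334 against control, was not called (-1.41, adjusted p = 0.257). Without this mouse, Cxcl2 was also called higher in the combination than with SB525334 (3.14, adjusted p = 0.0127) and so was Cxcl3 (2.41, adjusted p = 0.0429), which turned the sign of both values.

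Cxcr2, the receptor of these ligands on neutrophils, was at 2.62, 2.79, 1.78 and 1.72 CPM in control, 0.0452, 0, 0.818 and 0.215 CPM with SB525334, 0.373, 0.583, 1.68 and 1.04 CPM with KN046 and 0.359, 0, 0 and 2.03 CPM in the combination. All SB525334 and all KN046 mice were below all control mice, and 2 combination mice had 0 counts while mouse 4 reached the control range. None of the differences was called (SB525334 -3.03 ± 1, adjusted p = 0.0719), although Cxcr2, SB525334 against control, was called without SB525334 mouse 3 (-4.60, adjusted p = 0.0221). Cxcl5 was not tested, with 21 counts over the control mice and 3 over the SB525334 mice. Of 12 neutrophil genes, 9 were lower with SB525334, 4 with KN046 and 3 in the combination, and their sum was 371 to 489 CPM in control, 84.3 to 120.0 with SB525334, 153 to 373 with KN046, and 93.8, 118, 95.9 and 351 CPM in combination mice 1 to 4. The neutrophil gene S100a8 was at 23.2 to 34.1 CPM in control and 0 to 2.58 CPM with SB525334. No gene of the list was at 0 in every mouse, and the part of neutrophils in the CXCR2 axis values was not tested.

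Of the lymphoid axes, Ccl21a and Cxcr5 stood out in 2 combination mice. Ccl21a, a CCR7 ligand of lymphoid stroma, was at 1.09, 1.23, 0.101 and 0.261 CPM in control, 0, 0.159, 0.172 and 0.302 CPM with SB525334, 0.480, 0.583, 0.0559 and 0.312 CPM with KN046 and 2.21, 0.110, 0.218 and 6.55 CPM in the combination. Combination mice 1 and 4 held the highest levels, and no comparison was called (combination against control 1.74 ± 0.93, adjusted p = 0.287). Ccr7, carried by naive T cells and migrating dendritic cells, was at 4.86, 4.02, 1.78 and 1.25 CPM in control, 1.04, 2.07, 2.15 and 1.90 CPM with SB525334, 0.906, 3.45, 1.23 and 1.71 CPM with KN046 and 3.18, 2.21, 1.53 and 4.38 CPM in the combination, and it was not called (-0.08, adjusted p = 0.941, in the combination). Of 8 dendritic cell genes, edgeR called 0 in each of the 6 comparisons (4 at an unadjusted p under 0.05 and 2 by DESeq2 with KN046, and 1 to 3 and 0 in the others). Cxcr5, the receptor of Cxcl13 on B cells, was at 0.175, 0.237, 0.101 and 0 CPM in control, 0.271, 0, 0.0430 and 0.129 CPM with SB525334, 0, 0.535, 0.335 and 0.623 CPM with KN046 and 0.976, 0.166, 0.109 and 5 CPM in the combination. It rose in the combination (3.53 ± 1.11, adjusted p = 0.0492), but 106 of the 130 counts of that group were from mouse 4, without which adjusted p = 0.397, and the call was lost without any 1 of 10 other mice and with the control pairs summed (adjusted p = 0.212). Exons of Cxcr5 overlap Bcl9l on the opposite strand.

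Of 7 tested B cell genes, 2 were higher in the combination than in control (Cd79a and Cd79b), and edgeR and DESeq2 called 0 with SB525334 (1 at an unadjusted p under 0.05) and 0 with KN046 (0 unadjusted). The B cell sum was 2.43 to 5.73 CPM in control, 0.990 to 3.46 with SB525334 and 3.07 to 13.2 with KN046, and in combination mice 1 to 4 it was 24.6, 2.92, 2.78 and 66.7 CPM. Mice 1 and 4, the highest for Ccl21a, Cxcr5 and Cxcl13 in the combination, were thus also the highest for B cell genes. Of 6 tested genes of splenic and lymph node stroma, 3 were higher in the combination (Tlx1, Nkx2-5 and Coch), and their sum, most of which was Pdpn, was 83.7 to 107 CPM in control, 86.5 to 125 with SB525334, 72.0 to 128 with KN046 and 119 to 147 CPM in the combination. No gene of these lists was at 0 in every mouse, and Madcam1, a vessel marker of lymphoid tissue, was at 0.0546 to 0.943 CPM in the combination. The part of these cells in the Cxcr5, Cxcl13 and Ccl21a values was not tested.

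The ligands and receptors of type 2 and regulatory cells were low throughout. Ccr8, known from tumor regulatory T cells, was at 1.62, 0.805, 0.862 and 0.941 CPM in control, 0.362, 0.438, 0.430 and 0.603 CPM with SB525334, 0.213, 0.0972, 0.391 and 0.623 CPM with KN046 and 1.44, 0.221, 0.983 and 1.32 CPM in the combination. Both single-drug groups were below the control mice. Ccr8 was called between combination and KN046 (1.58 ± 0.55, adjusted p = 0.0439) and for the interaction (2.78 ± 0.75, adjusted p = 0.0434), calls that were lost in 13 and 14 of the 16 fits without 1 mouse and, with the control pairs summed, had adjusted p = 0.0591 and 0.118. Its ligand Ccl1 fell with KN046, where the mice had 0, 0, 0 and 6 counts against 22, 17, 11 and 13 in control (-3.17 ± 0.73, adjusted p = 0.0303). The CCR4 ligands Ccl17 and Ccl22 were not called. Ccl17 was at 1.09 to 1.62 CPM in control, 2.02 to 3.75 with SB525334, 0.0533 to 0.883 with KN046 and 0.411 to 2.04 in the combination, so that the SB525334 mice lay above and the KN046 mice below the control mice. The eosinophil receptor Ccr3 was at 0.131, 0.521, 0.304 and 0 CPM in control, 0.0904, 0.119, 0.0430 and 0.129 CPM with SB525334, 0, 0.827, 0.168 and 0.364 CPM with KN046 and 0.411, 1.10, 1.04 and 1.04 CPM in the combination. Every combination mouse was above every SB525334 mouse (3.15 ± 0.83, adjusted p = 0.0422), a call from 9 counts in the SB525334 group that was lost in 11 of the 16 fits without 1 mouse.

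The remaining tested genes were called nowhere. Ccl11 and Ccl24, eosinophil attractants, had group means of 1.16 to 2.04 and 0.661 to 2.89 CPM. The mucosal and skin ligands Ccl25, Ccl27a and Ccl28 had log2 fold changes between -0.81 and 0.13 against control, and the receptor Ccr10 between -0.58 and 0.43. Ccl25 and Ccl27a overlap Elavl1 and Il11ra1 on the opposite strand. Of the 19 untested genes, Ccl21b, Ccl21d, Ccl21e, Ccl21f and Ccl26 had 0 counts in every mouse. The Ccl21 and Ccl27 copies are near-identical, and how reads that align to several copies were counted is not given in the sources used here, so that Ccl21a and Ccl27a are uncertain. The CCR7 ligand Ccl19 had 7, 2, 7 and 9 counts in control, 0, 3, 3 and 2 with SB525334, 0, 0, 8 and 2 with KN046 and 10, 2, 6 and 24 in the combination, with the highest count in combination mouse 4. The XCR1 ligand Xcl1 had 29 counts over the control mice and 2 over the KN046 mice (depth-scaled ratio 0.0747, 95% counting interval 0.00864 to 0.295). The other 12, Ccl3, Ccl20, Ccl27al, Ccl27b, Ccr1l1, Ccr4, Ccr6, Ccr9, Cxcl5, Cxcl15, Cxcl17 and Cxcr1, had at most 16 counts in any mouse.

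Downstream of the receptors, 45 genes of G protein, kinase and cytoskeletal signalling were tested. With KN046, 8 were lower and 0 higher, among them the Src family kinases Fgr and Lyn, Plcb2, Rac2, Vav1 and Was, whose log2 fold changes ran from -1.37 (Fgr) to -0.58 (Lyn). With SB525334, 3 were lower, Fgr (-1.11) and the receptor signalling regulators Rgs1 (-1.94, adjusted p = 0.00158) and Rgs16 (-1.58, adjusted p = 0.0019). In the combination edgeR called 0 of 45 against control (3 at an unadjusted p under 0.05, 1 by DESeq2), 7 were higher than with KN046 (among them Grk2, Rac2, Vav1 and Was) and 1 was higher than with SB525334 (Rgs1, 2.21, adjusted p = 0.00138). The interaction was called for 6, all positive, among them Fgr, Rac2, Rgs1 and Was. Of all genes tested, 2.4% were called lower with KN046 and 9.22% with SB525334. In the combination, 9.89% were called higher than with KN046 and 0.544% higher than with SB525334, and 1.73% had a called positive interaction. The 3 of 45 called lower with SB525334 were a smaller share than among all genes. The interferon-γ response list shares 1 gene with these 45. The list medians were -0.14, -0.21, -0.06, 0.15, 0.06 and 0.28 in these 6 comparisons, against medians of all genes between -0.03 and 0.01. The summed level of the 45 genes was 5473 to 5952 CPM in control, 5384 to 5934 with SB525334, 5098 to 6152 with KN046 and 5697 to 6340 in the combination. The list calls are given over all mice only, and the part of leukocyte content in them was not tested.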

How the data were processed

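RNA of 16 tumor tissue samples, 4 per group and each taken as 1 mouse, was analysed, with groups taken from the labels. The deposited raw counts per gene were used, which the authors made with HTSeq 2.0.4 from HISAT2 2.2.1 alignments (GRCm39) of reads trimmed by cutadapt 2.7. Deposited normalized tables, made with DESeq2 1.38.3, were not used. Symbols, exon lengths and positions came from GENCODE M39 on GRCm39, in which 189 of the 21959 identifiers were not found. In R 4.3.3 with edgeR 4.0.16, counts were scaled by TMM, filtered by filterByExpr (minimum count 10) and fitted in 1 quasi-likelihood model over the 4 groups, with Benjamini-Hochberg adjustment over 13968 genes and a threshold of 0.05. The biological coefficient of variation was 20.1%. The pipeline was tested on simulated data. Counting intervals are exact binomial 95% intervals and cover counting error only.

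Genes were named by a rule: any chemokine or receptor gene with its level, full statistics for genes called in any of the 6 comparisons and for the CXCR3, CXCR2, CCR2, CCR7 and CXCR5 axes, Ccl3, Ccl4, Ccl5, Cxcl12 and Cxcr4, and list genes by name where called or as a defining marker. Some genes are counted but not reported here by name, and the figures leave them out. Genes and lists were chosen with earlier results of these data known. The replicate numbers were not used to pair the mice in the main fit. Alternatives were DESeq2 1.42.0, other scalings and filters, fits of the 8 mice compared, summed control pairs, a replicate block and each mouse left out. Leaving out KN046 mice 1 and 3 together was added after the data were seen.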

Additional observations from a re-analysis of the deposited data

Results flagged for a closer look

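Of 164 groups of 4 mice checked (41 genes in 4 groups), 13 had a mouse whose gap to the nearest other mouse passed Dixon's 95% critical share of the group's range, where chance flags about 1 in 20, or 8.2. SB525334 mouse 3 stood high for 2 CXCR2 ligands of 1 gene cluster, Cxcl2 at 16.1 CPM (next 0.542) and Cxcl3 at 10.6 CPM (next 0.407). Combination mouse 4 stood high for Cxcl13 at 3.02 CPM (next 0.359), and SB525334 mouse 4 low for Cxcl13 at 0 CPM, which is a difference of 1 count. Control mouse 2 stood apart for Ccl5 at 11.5 CPM, Ccl6 at 72.3 CPM and Cxcr3 at 2.98 CPM. The other 6 were Ccl1 at 0.312 CPM in KN046 mouse 4, Ccl17 at 1.62 CPM in control mouse 4, Ccl24 at 8.49 CPM in SB525334 mouse 4, Ccl25 at 19.7 CPM in KN046 mouse 2, Ccr3 at 0.411 CPM in combination mouse 1 and Ccr8 at 1.62 CPM in control mouse 1.

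The effect of SB525334 differed with and without KN046 for 10 genes by the interaction term of the edgeR fit, always positive, which means that the combination lay above the sum of the log2 effects of the single drugs. For Cxcl13 the combination was still lower than control (-2.80, adjusted p = 0.0182), and the 3 counts over the SB525334 mice left almost no room for a further fall. The differences were 6.67 for Cxcl13, 3.26 for Cxcl9, 2.97 for Cxcr6, 2.78 for Ccr8, 2.58 for Cxcr3, 2.24 for Cxcl10, 2.2 for Ccl5, 1.61 for Ccl7, 1.13 for Cxcr4 and 0.94 for Cxcl16 on the log2 scale. Without KN046 the effect of SB525334 on Cxcl9 was -0.77, and with KN046 it was 2.49.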

How the results depend on the processing

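The counts of called genes (4 for SB525334, 8 for KN046, 4 for the combination, 16 for combination against KN046, 4 for combination against SB525334 and 10 for the interaction) stayed within 1.5 times under RLE or upper quartile scaling, no filter, a filter at 1 CPM, DESeq2 (6, 10, 5, 19, 6 and 13) and the replicate block (5, 8, 3, 18, 3 and 9). DESeq2 with the study's thresholds (unadjusted p under 0.05 and fold over 2) gave 12, 16, 7, 18, 12 and 23. Fits of only the mice compared gave 9, 1, 3, 9 and 1. Summed control pairs gave 2, 0, 2, 14, 3 and 4. Without KN046 mice 1 and 3 the counts were 7, 0, 6, 7, 3 and 5. Leaving out 1 mouse gave ranges of 3 to 6, 0 to 16, 3 to 6, 10 to 17, 1 to 5 and 6 to 12, with 10 without KN046 mouse 3 for combination against KN046. By adjusted p, every alternative and every fit without 1 mouse called Cxcl12 (SB525334, combination, combination against KN046), Cxcl14 (its 3 calls), Cxcl13 (SB525334, interaction), Cxcl9, Cxcl16, Ccl5 and Cxcr6 (combination against KN046) and Cxcl9, Cxcl10 and Ccl5 (interaction). For Cxcl2, combination against SB525334, the log2 fold change was -0.24 (range without 1 mouse -0.65 to 3.14), and for Cxcl3, combination against SB525334, it was -1.04 (-1.60 to 2.41), and both turned positive without SB525334 mouse 3. Whether the replicate numbers pair mice across groups is not stated. Of 24 same-numbered pairs 11 correlated above 0.1 (range -0.48 to 0.53), and 7 of 16 mice correlated best with their own number. The mean correlation was 0.041 for same-numbered pairs and -0.013 for other pairs, which does not settle the question. At 9 or fewer counts per group, as for Cxcl13 and Ccr3 with SB525334, depth limits the size of a change.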

Other observations

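Outside the naming rule, 11 atypical receptors, platelet chemokines and chemerin genes were listed, of which 9 were tested. Rarres2, which encodes chemerin, an attractant of macrophages and plasmacytoid dendritic cells made mostly by liver and fat, was at 33.2 to 54.1 CPM in control, 5.08 to 6.57 with SB525334, 20.4 to 41.7 with KN046 and 2.35 to 3.85 in the combination. It fell with SB525334 (-2.84, adjusted p = 7.31e-07) and in the combination (-3.73, adjusted p = 5.62e-09) by the edgeR test, where the 15 hepatocyte genes were also lower. Its receptor Cmklr1 was at 33.2 to 48.7, 51.9 to 78.4, 9.97 to 44.9 and 39.4 to 70.3 CPM in the same order, and it was higher in the combination than with KN046 (1.05, adjusted p = 0.0208). Ackr2, a scavenging receptor of inflammatory CC chemokines, fell with SB525334 (-2.07, adjusted p = 0.00187) and in the combination (-1.94, adjusted p = 0.00304), and Ppbp, a platelet CXCR2 ligand, fell with SB525334 (-2.69, adjusted p = 0.0303). Ackr3, the scavenging receptor of Cxcl12, was at 129.5 to 141 CPM in control, 80.5 to 139.7 with SB525334, 84.1 to 224 with KN046 and 121 to 164 in the combination and was called in none of the 6 comparisons. By edgeR the list had 0 genes called with KN046 (1 at an unadjusted p under 0.05, 0 by DESeq2), 0 between the combination and SB525334 (3 and 1) and 0 for the interaction (1 and 0).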
